A study of Mus musculus with 6 samples.

Results

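The 45 genes described here encode the enzymes and loading factors that copy DNA in S phase, together with enzymes that supply its building blocks. They were chosen by name and without a cut on any measured value, although earlier results of these data were known. They comprise 6 subunits of the origin recognition complex, 2 licensing factors, 6 subunits of the MCM helicase and 6 factors that activate it. The sliding clamp with 5 subunits of its loader, 8 subunits of polymerases and primase and 3 subunits of the single strand binding complex are also among them. The rest are 2 enzymes that join Okazaki fragments, 5 enzymes of nucleotide supply, and Uhrf1, which helps to copy DNA methylation at the fork. Each name matched 1 row of a table of 55421 genes. All 45 were among the 13562 genes that were tested for reaching 10 or more normalized reads when averaged over the libraries.

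Germinal centre B cells, whose RNA was sequenced, mutate and select their antigen receptors after immunization. Both groups were C57BL/6 mice that carried an AID-GFP fluorescent reporter, and all received NP(18)OVA, ovalbumin with an attached hapten, in alum. Total RNA came from GFP+ spleen cells on day 9. The 3 wildtype libraries were compared with 3 from SFR KO mice, which lack the SLAM family receptor genes in a stretch that begins in intron 1 of Cd244, ends in exon 8 of Slamf6 and holds Cd48, Cd84, Ly9, Slamf1 and Slamf7 in between. The labels name no tissue to which the deletion was restricted. They do not state that each sample was a separate mouse, so the p-values measure only the spread between these samples.

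DNA replication begins when the origin recognition complex, Cdc6 and Cdt1 load the MCM ring onto chromatin before S phase. Cdc45 and the GINS complex then turn the ring into an active helicase, and primase, polymerases, the clamp and the ligase build the new strands behind it. Germinal centre B cells are known for rapid division, mainly in the dark zone, and the transcription of many replication genes is known to depend on E2F factors.

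The libraries held between 28269310 and 33053024 reads assigned to genes. The 7 genes of the deletion summed to between 10295 and 22247 reads in each wildtype library and between 5 and 17 in each SFR KO library. The labelled cell type carried its markers, with 10 of 10 germinal centre genes tested. Bcl6, the transcription factor of this cell state, stood between 14732 and 16046 normalized reads in wildtype and, without overlap, between 13496 and 14235 in SFR KO libraries (limma adjusted p = 0.245). Limma and edgeR called 0 genes of that list, with 2 at an unadjusted limma p under 0.05. DESeq2 called 1, Gcsam, which was higher in SFR KO without overlap (DESeq2 adjusted p = 0.0097, limma 0.123). Limma called Gcsam without SFR KO 1 (adjusted p = 0.0302, 3.7% of all genes called) and with sample weights (0.0234, 4.65%). In RNA from sorted cells in bulk, fewer cells of a type and less RNA per cell cannot be told apart.

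Levels of the genes were first compared within a library, as normalized reads per kilobase of each gene's longest annotated transcript. Pcna, the sliding clamp, was the most abundant of the 45 on this scale at 8773 ± 105 in wildtype (mean ± SD, n = 3). The 6 subunits of the MCM ring, which assemble in equal numbers, lay close together in wildtype, from 4123 for Mcm4 to 6059 for Mcm5, a ratio of 1.47 between the highest and the lowest. In SFR KO libraries this ratio was 1.46. The origin recognition subunits lay much lower and further apart, from 208 for Orc1, the subunit whose level is known to vary over the cell cycle, to 1599 for Orc6, a ratio of 7.69. In SFR KO libraries the ratio was 9.29, with Orc1 at 189 ± 15.7 and Orc6 at 1751 ± 80.4 (mean ± SD, n = 3).

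In other complexes the ratio of the highest to the lowest subunit was smaller than in the origin recognition complex. The 4 GINS subunits spanned a ratio of 3.59 in wildtype and 3.49 in SFR KO libraries, and the 5 clamp loader subunits 2.40 and 2.32. The 3 single strand binding subunits spanned 1.99 and 2.03, the primase subunits Prim1 and Prim2 1.48 and 1.44, and the ribonucleotide reductase subunits Rrm1 and Rrm2 1.58 and 1.54. Pold1, the catalytic subunit of polymerase delta, stood at 2779 ± 145 reads per kilobase against 832 ± 27.1 for Pold3, an accessory subunit of the same enzyme (wildtype, mean ± SD, n = 3). Pole and Pole2, subunits of polymerase epsilon, lay within a ratio of 1.2 of each other in both genotypes. These levels depend on which transcript gives the length: with the principal transcript of the annotation, 5 of the 45 levels moved by more than 1.5 times. Under that choice Mcm6 became the highest MCM subunit at 8370, the MCM ratio in wildtype was 2.03, and the primase ratio was 2.35 in wildtype and 2.29 in SFR KO libraries.

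**Figure D1:**
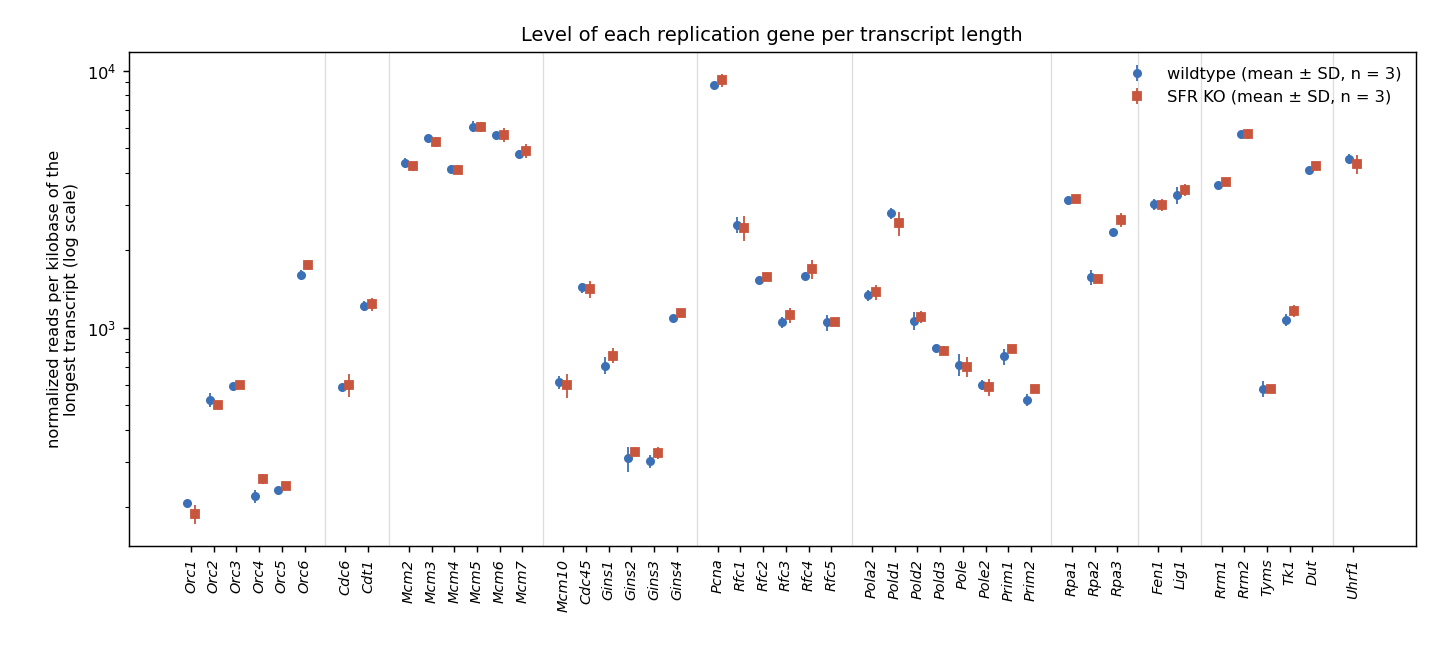
Normalized reads per kilobase of the longest transcript (log scale) for each of the 45 genes, ordered by role; points are means and bars SDs of 3 libraries, wildtype in blue and SFR KO in red. Pcna stands highest at 8773 in wildtype, the MCM subunits lie between 4123 and 6059, and Orc1 is the lowest at 208.

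Promoters were read to show what these genes share in sequence. RefSeq promoters (GRCm38.p6, from 250 bases before to 50 bases after a start) were matched by symbol for 38 of the 45 genes, which had 47 windows in all. Mcm4, Gins1, Gins2, Gins4, Rfc2, Pole and Prim2 had no entry in the table. The windows were searched on both strands for 4 octamers of the type that E2F factors are known to bind, TTTCCCGC, TTTGGCGC, TTTCGCGC and TTTGCCGC. At least 1 octamer was present in 15 of 47 windows (31.9%), which belonged to 15 different genes. The share was 2.26% over all 32851 windows of the same length in the table and 4.02% over the 12229 windows of tested genes. The pentamer CCAAT on either strand, which is shared by many promoters, was present in 55.3% of the members' windows and in 37.4% of all windows. There were 21 octamer matches in all, with 8 of TTTCCCGC, 7 of TTTCGCGC, 6 of TTTGGCGC and 0 of TTTGCCGC. A match describes these letters and does not show that a factor is bound.

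The stretches below carry octamers upstream of the start in 3 MCM subunits and in 3 further genes whose values are given by library. Upstream matches in Rfc3, whose values are also given by library, and in Orc3 and Gins3 are not printed. Each is printed 5′ to 3′ on the strand of the gene, with 20 bases on either side where these lie upstream of the start, and capitals mark the octamer matches. They lie at chr4:108579407-108579453 (plus strand) for Orc1, chr11:98907993-98908040 (plus) for Cdc6, chr8:75109336-75109387 (plus) for Mcm5, chr1:128359725-128359835 (minus) for Mcm6, chr5:138172021-138172068 (minus) for Mcm7 and chr17:56304108-56304155 (plus) for Uhrf1. In Mcm5 and at the first site of Mcm6, a TTTCGCGC and a TTTGGCGC on opposite strands overlap, so 12 letters hold both.
Orc1: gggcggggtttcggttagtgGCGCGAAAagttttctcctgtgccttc
Cdc6: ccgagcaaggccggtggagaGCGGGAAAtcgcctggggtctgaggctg
Mcm5: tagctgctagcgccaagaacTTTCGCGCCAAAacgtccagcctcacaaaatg
Mcm6: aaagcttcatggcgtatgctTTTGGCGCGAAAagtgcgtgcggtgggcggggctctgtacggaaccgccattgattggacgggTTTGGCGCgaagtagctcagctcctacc
Mcm7: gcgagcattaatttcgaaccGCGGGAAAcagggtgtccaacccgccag
Uhrf1: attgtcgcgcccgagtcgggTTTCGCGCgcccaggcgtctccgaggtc

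**Figure D2:**
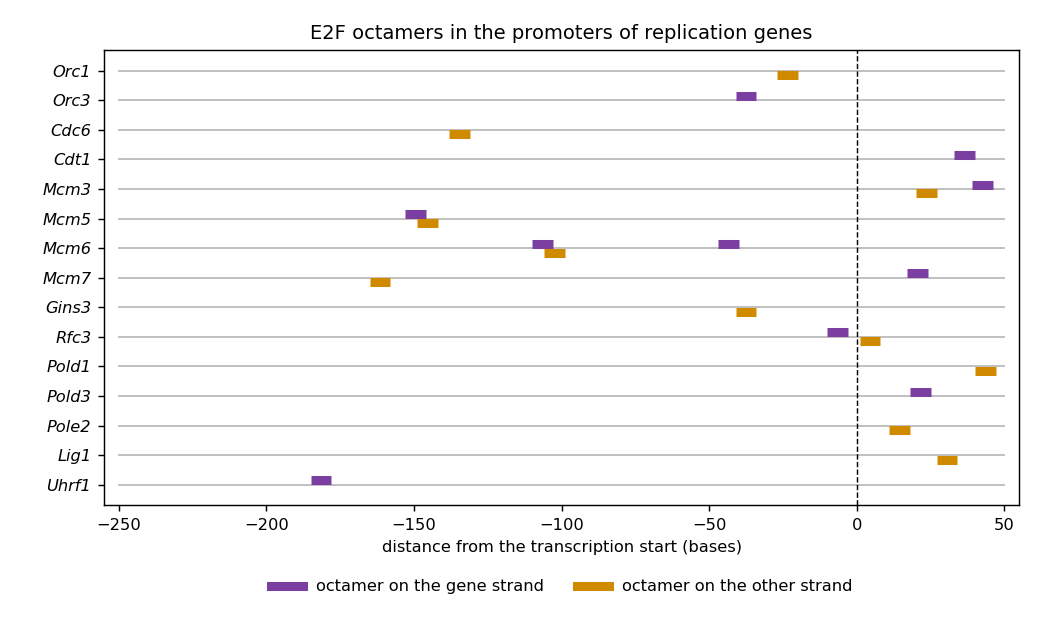
Positions of the E2F octamers in the promoters of the 15 replication genes that hold one, as distance in bases from the RefSeq start (dashed line); purple boxes are matches on the strand of the gene and orange boxes matches on the other strand. Of the 21 matches, 12 lie upstream of the start, and Mcm6 is the gene with 3.

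The main comparison asked whether replication transcripts differed between SFR KO and wildtype germinal centre B cells. Limma called 0 of the 45 genes at an adjusted p under 0.05, where the share called over all tested genes was 0.465%. On the recovered whole reads edgeR also called 0 (over all genes 0.221%), as did DESeq2 (4.53%). The authors' deposited table likewise had 0 of 45 under that threshold (4.8% over its genes), with a smallest adjusted p of 0.175, for Orc4. At an unadjusted p under 0.05 limma had 2 of 45 genes, Orc4 and Rpa3, which is 4.44% against 16.1% of all tested genes. In the alternative settings this unadjusted count ran from 1 to 8 of 45, the highest with sample weights. The share of all genes at an unadjusted p was not taken in those settings. In 18 planned and 3 added alternative settings the count of called genes stayed at 0, and the smallest adjusted p in any of them was 0.118, for Orc6 with sample weights. The share called over all genes was 4.65% with sample weights and 1.19% with a robust prior.

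The estimates were small as well as uncalled. Differences are given as log2 of SFR KO over wildtype, on the scale of log2(normalized reads + 1). They ran from -0.14 for Orc1 to 0.22 for Orc4, with 29 genes above 0 and 16 below. Their median was 0.02, against -0.0030 over all tested genes. Their median standard error was 0.062, against 0.102 over all tested genes. The unadjusted 95% limma interval stayed within a 1.5-fold difference in either direction for 45 of 45 genes and within 1.25-fold for 42. The exceptions to the narrower band were Orc1, Orc4 and Gins1. These intervals do not show that the genotypes are alike. They cover only the spread between the libraries in the main setting, and some estimates moved outside them in other settings. With the GC trend of every library removed, Rpa3 stood at -0.10 (main interval 0.02 to 0.30) and Orc4 at 0.04 (0.06 to 0.39).

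**Figure D3:**
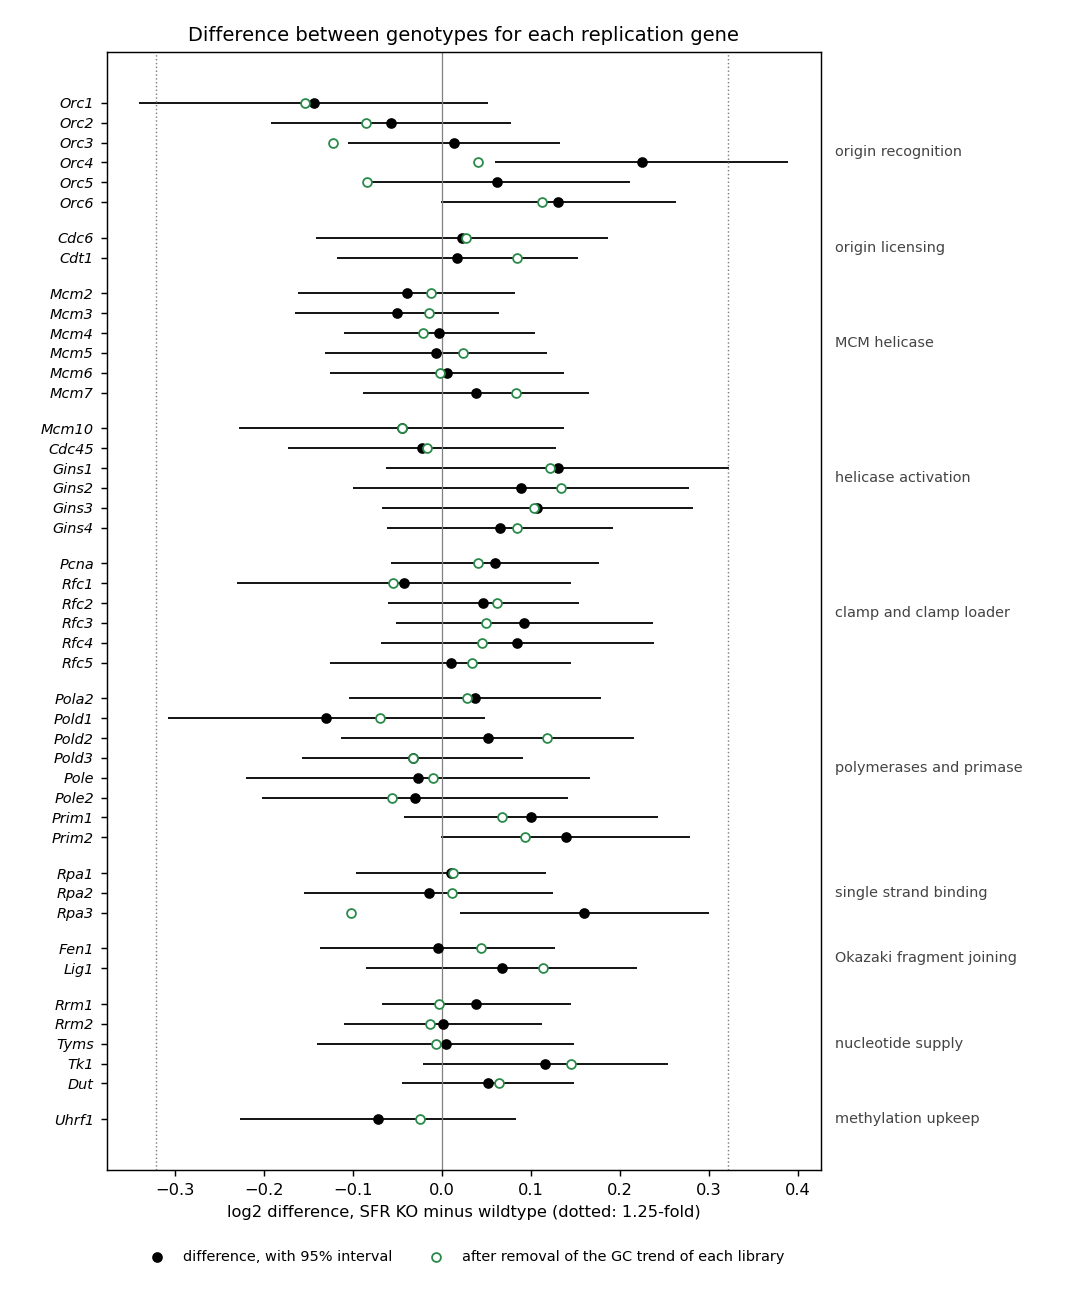
Log2 difference, SFR KO minus wildtype, for each of the 45 genes by role; black points with bars are the limma estimate and its 95% interval, green circles the estimate once the GC trend of every library was removed, and dotted lines mark a 1.25-fold difference. Intervals of 42 genes lie inside the dotted lines, and Orc4 (0.22) and Rpa3 (0.16) are the 2 whose interval does not reach 0.

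Summed over the 45 genes, the normalized reads of wildtype 1, 2 and 3 were 292984, 301567 and 309285, and those of SFR KO 1, 2 and 3 were 286112, 313672 and 307657. The group means were 301279 ± 8155 and 302480 ± 14491 (SD, n = 3 each), and the wildtype values all lay inside the SFR KO range. Values per library are given below in this order of replicates 1, 2 and 3. Groups of single genes did not overlap in 6 of 45 cases (13.3%), against 21.7% of all tested genes. All 6 were higher in SFR KO (Orc4, Orc5, Orc6, Prim2, Rpa3 and Dut; 9.78% of all genes were apart in this direction), and 0 were lower (11.9%).

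The origin recognition complex, which marks the sites where replication can start, held both ends of the range. Orc4, a partner subunit of the same protein family (ENSMUSG00000026761, chr2:48902824-48950277), had 959.7, 877 and 858 normalized reads across wildtype and 1073, 994 and 1081 across SFR KO libraries. Every SFR KO library was above every wildtype library. The mean difference was 0.22 ± 0.07 (SE; 95% interval 0.06 to 0.39) and the limma adjusted p was 0.193. Orc1, an ATPase subunit needed to load the MCM ring (ENSMUSG00000028587, chr4:108579423-108614833), had 609.5, 644 and 627 normalized reads across wildtype and 518, 574 and 612 across SFR KO libraries. It was lower on average in SFR KO, with SFR KO 3 inside the range of the wildtype, and its difference was -0.14 ± 0.09 (adjusted p = 0.461).

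Orc6, the most abundant subunit of the complex per length and a subunit that helps to recruit the MCM ring, had 2304, 2264 and 2464 normalized reads across wildtype and 2509.7, 2702 and 2488 across SFR KO libraries. The lowest SFR KO value lay just above the highest wildtype value, and the difference of 0.13 ± 0.06 missed the limma threshold (adjusted p = 0.317). Among the remaining subunits, Orc2 and Orc3 had differences of -0.06 and 0.01 with overlapping groups. Orc5 had 0.06 with groups apart by a narrow margin, 891.0 in the highest wildtype library against 894.4 in the lowest SFR KO library. Summed over the 6 subunits, the wildtype libraries had 8587, 8307 and 8383 normalized reads and the SFR KO libraries 8629, 8772 and 8761.

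This arrangement changed with base composition. Orc3, Orc4 and Orc5 have transcripts of low GC content (38.6%, 36.8% and 38.2%, against a median of 48.6% over the 45 genes). After each library's trend with GC content was removed, the difference of Orc4 was 0.04 ± 0.07 (adjusted p = 0.841) and its groups overlapped. Orc1, Orc2, Orc3 and Orc5 then had groups apart with SFR KO lower, while Dut was the 1 gene of the 45 apart with SFR KO higher. Over all tested genes 11.1% were apart in the lower and 8.75% in the higher direction after this correction, 19.8% in all, and limma called 0 of the 45 genes (0.133% of all genes).

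Cdc6 and Cdt1, the loaders that bring the MCM ring to origins, had estimates near 0. Cdc6 had 2742, 2866 and 2837 normalized reads across wildtype and 2581, 3159.6 and 2866 across SFR KO libraries. SFR KO 1 was the lowest and SFR KO 2 the highest of the 6 libraries, and the difference was 0.02 ± 0.07 (interval -0.14 to 0.19, adjusted p = 0.916). Cdt1, which geminin holds in check outside the licensing period, had 3229, 3156 and 3450.4 normalized reads across wildtype and 3109, 3386 and 3462 across SFR KO libraries, a difference of 0.02 ± 0.06 (adjusted p = 0.923). The groups of both genes overlapped.

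The MCM subunits, which form the ring that unwinds DNA, had narrow intervals around 0. Their differences ran from -0.05 for Mcm3 to 0.04 for Mcm7, with a median of -0.01, and none of their 95% intervals went beyond -0.17 or 0.17. Mcm6, the subunit with the most reads, had 23842, 23997 and 25230.2 normalized reads across wildtype and 22688, 25136 and 25589.8 across SFR KO libraries. Its difference was 0.01 ± 0.06 (interval -0.13 to 0.14, adjusted p = 0.976). Mcm3, the subunit with the smallest limma p of the ring, had 18371, 18764 and 19319.8 normalized reads across wildtype and 17261, 18836 and 18419.5 across SFR KO libraries and a difference of -0.05 ± 0.05 (adjusted p = 0.678). In both genes SFR KO 1 was the lowest library, and this held for all 6 subunits of the ring. Summed over the ring, wildtype libraries had 105133, 106840 and 111297 normalized reads and SFR KO libraries 101013, 110599 and 109602.

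Activation of the helicase needs Cdc45, the GINS complex and Mcm10. Cdc45 had 2920.1, 3096 and 3194 normalized reads across wildtype and 2795, 3264 and 3021 across SFR KO libraries, a difference of -0.02 ± 0.07 (adjusted p = 0.909), with SFR KO 1 lowest and SFR KO 2 highest. Gins1, a subunit of the complex that holds Cdc45 to the ring, had 766, 719 and 836 normalized reads across wildtype and 785, 901 and 852 across SFR KO libraries. Its wildtype 3 value lay between the SFR KO values, so the groups overlapped, and the difference was 0.13 ± 0.09 (interval -0.06 to 0.32, adjusted p = 0.498). The 4 GINS subunits all had estimates above 0, from 0.07 for Gins4 to 0.13 for Gins1, and Mcm10 stood at -0.05. With 0 of these 6 genes called by limma, edgeR or DESeq2 and 0 at an unadjusted p under 0.05, this shared sign is a description only.

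The sliding clamp Pcna, which tethers polymerases to DNA, had 13370.2, 13139 and 13444 normalized reads across wildtype and 13180.1, 14709 and 13787 across SFR KO libraries. SFR KO 2 was the highest library and SFR KO 1 lay within the wildtype range, and the difference was 0.06 ± 0.05 (interval -0.06 to 0.18, adjusted p = 0.628). Of the clamp loader, Rfc3 had the smallest p, with 2699, 2936 and 2939.5 normalized reads across wildtype and 2842, 3243 and 3064 across SFR KO libraries and a difference of 0.09 ± 0.06 (adjusted p = 0.525). The other loader subunits ran from -0.04 for Rfc1, the large subunit, to 0.08 for Rfc4, with overlapping groups throughout.

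Polymerases and primase held further values near the ends of the range. Pold1, the catalytic subunit that extends the lagging strand, had 9421, 9426 and 10300.3 normalized reads across wildtype and 7791, 9532 and 9391 across SFR KO libraries. The low mean of the SFR KO group rested on SFR KO 1, since the other SFR KO libraries lay within or near the wildtype range, and the difference was -0.13 ± 0.08 (interval -0.31 to 0.05, adjusted p = 0.462). Without SFR KO 1 it was -0.04. Prim2, the large subunit of primase, had 1206, 1299 and 1337 normalized reads across wildtype and 1409, 1423 and 1394 across SFR KO libraries. All SFR KO values were above all wildtype values, and the difference of 0.14 ± 0.06 had an adjusted p of 0.314. Prim1, the catalytic subunit of primase, was at 0.10, and its groups overlapped because wildtype 2 (2531.5 normalized reads) was above SFR KO 1 (2527.4). Pola2, Pold2, Pold3, Pole and Pole2 lay between -0.03 and 0.05.

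Single strand binding is carried out by the 3 subunits of replication protein A. Rpa1, the large DNA-binding subunit, had 15436, 16229.9 and 16012 normalized reads across wildtype and 16032, 16478 and 15500.2 across SFR KO libraries and a difference of 0.01 ± 0.05 (interval -0.10 to 0.12, adjusted p = 0.944). Rpa3, the smallest subunit (ENSMUSG00000012483, chr6:8255936-8259173), had 1639.8, 1604 and 1560.1 normalized reads across wildtype and 1879, 1818 and 1676 across SFR KO libraries. The groups did not overlap and the difference was 0.16 ± 0.06 (interval 0.02 to 0.30), with an adjusted p of 0.25. With a GC content of 34.2%, its transcript was the lowest in GC of the 45, and after the GC correction its difference was -0.10 ± 0.06 (adjusted p = 0.474), on the other side of 0. Rpa2 stood at -0.02 with overlapping groups.

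Fen1, which trims the flaps of Okazaki fragments, had 7067, 6849.7 and 7555 normalized reads across wildtype and 6702, 7495 and 7205 across SFR KO libraries, and the difference was -0.01 ± 0.06 (interval -0.14 to 0.13, adjusted p = 0.977). Lig1, the ligase that seals them, had 9533, 10921 and 11000.1 normalized reads across wildtype and 10285, 11254 and 11368 across SFR KO libraries. Wildtype 1 was its lowest library, and the groups overlapped at a difference of 0.07 ± 0.07 (adjusted p = 0.683).

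The enzymes of nucleotide supply had estimates from 0.00 for Rrm2 to 0.12 for Tk1, with 5 of 5 above 0 and 0 called. Rrm1, the large subunit of ribonucleotide reductase, which makes deoxyribonucleotides, had 19455, 20040.5 and 19649 normalized reads across wildtype and 19468, 20789 and 20500.5 across SFR KO libraries and a difference of 0.04 ± 0.05 (interval -0.07 to 0.14, adjusted p = 0.749). Tk1, the thymidine kinase of the salvage pathway, had 2598, 2585 and 2839 normalized reads across wildtype and 2745, 3041 and 2905 across SFR KO libraries. Wildtype 3 lay between SFR KO 1 and SFR KO 3, and the difference of 0.12 ± 0.06 had an adjusted p of 0.4. Dut, which removes dUTP, had groups that did not overlap at a difference of 0.05 (adjusted p = 0.604), and Tyms, which makes thymidylate, stood at 0.00. Uhrf1, which recruits the maintenance DNA methyltransferase to newly copied DNA, had 15713, 15885 and 17112 normalized reads across wildtype and 13958, 15976 and 16492 across SFR KO libraries. Its difference of -0.07 ± 0.07 (adjusted p = 0.662) rested on SFR KO 1, and without that library it was 0.00064.

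Libraries of the same genotype stood apart from each other. For each gene the deviation of a library from the mean over the 6 libraries was taken on the log2 scale. The median deviation over the 45 genes was -0.04, -0.01 and 0.02 for wildtype 1, 2 and 3, and for SFR KO 1, 2 and 3 it was -0.05, 0.06 and 0.02. SFR KO 1 was the lowest library for 21 of the 45 genes, where it was lowest for 22.4% of all tested genes, and wildtype 1 for 12 (16.2%). SFR KO 2 was the highest library for 17 genes (14.3% of all). Without SFR KO 1, 18 of 45 genes (40%) had groups that did not overlap, all of them higher in SFR KO, where 38.2% of all genes were apart and 18.1% were apart in this direction with 5 libraries. The median difference was then 0.05, and limma still called 0 of 45 (3.7% of all genes). With the GC trend removed as well, 14 of 45 genes were apart, against 37.1% of all genes in either direction. Of these 14, 10 were higher and 4 lower in SFR KO. With upper quartile scaling of all 6 libraries 13 were apart, against 21.7% in either direction, and all 13 were higher in SFR KO. The share of all genes in each direction was not taken for these settings.

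**Figure D4:**
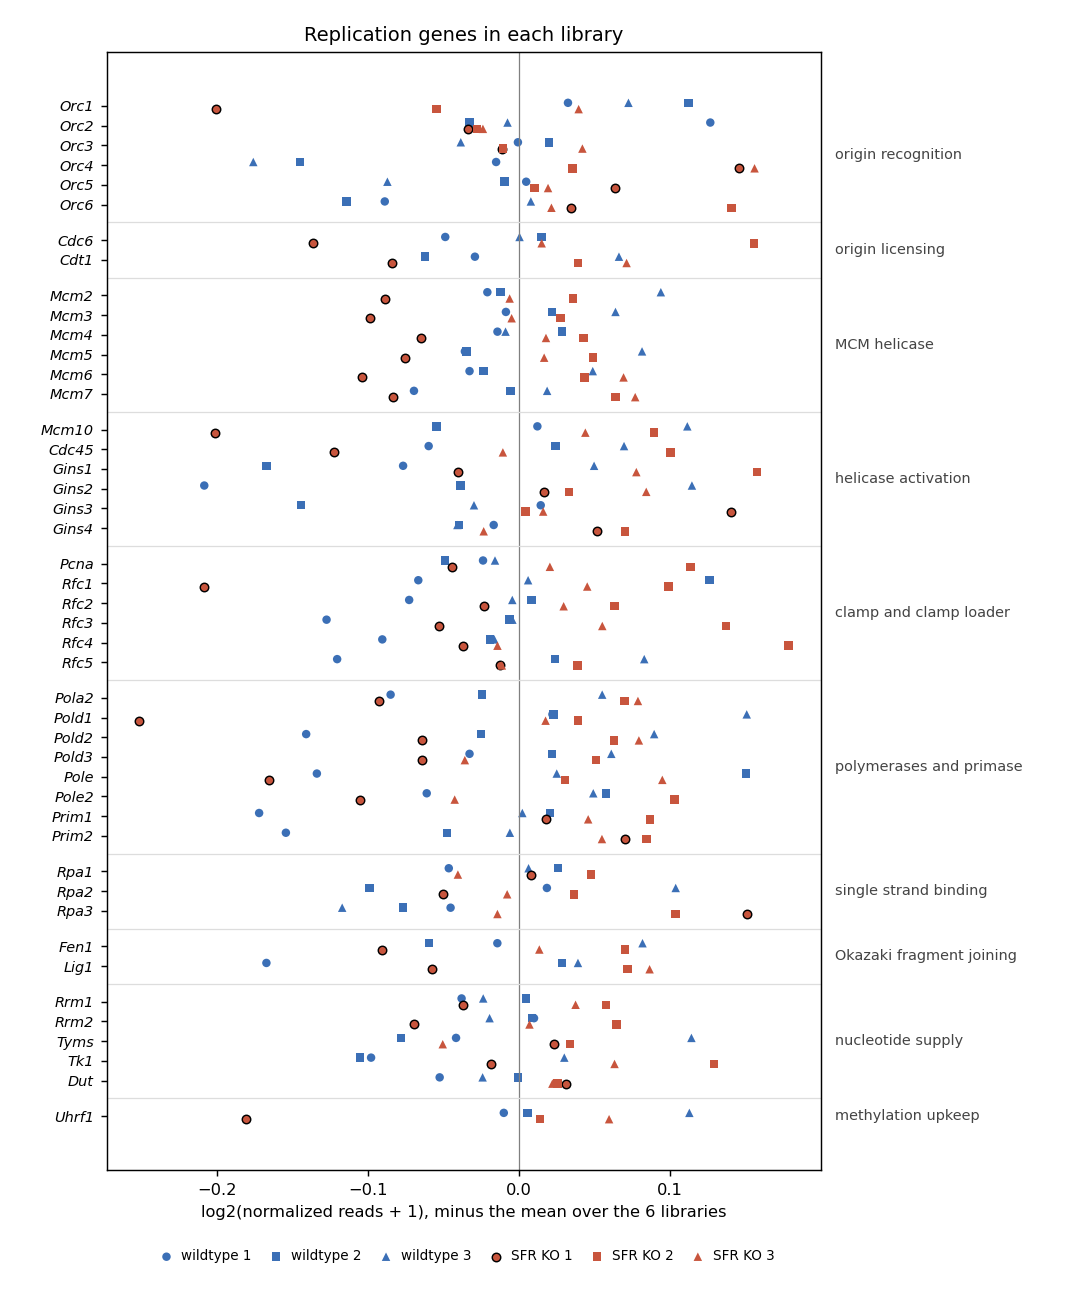
Deviation of each library from the mean over the 6 libraries, on the log2(normalized reads + 1) scale, for each of the 45 genes by role; blue symbols are wildtype and red symbols SFR KO libraries. The circles of SFR KO 1 (black edge) lie farthest left for 21 genes, among them the 6 MCM subunits, and the squares of SFR KO 2 lie farthest right for 17.

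Markers of other cells were read beside these values. SFR KO 1 and wildtype 1 carried the most of the neutrophil and macrophage list (9 of 10 genes tested, 0 called by limma, edgeR or DESeq2 and 0 at an unadjusted limma p under 0.05), at 3258 and 7538 summed normalized reads, against 1012 to 1743 in the other 4 libraries. Elane of that list was at 0 in 4 libraries. The red cell list (8 of 8 tested, likewise 0 called and 0 at an unadjusted p under 0.05) summed to between 1687 and 8696 in wildtype and between 1845 and 4692 in SFR KO libraries. The resting B cell list (6 of 6 tested) summed to between 14150 and 18302 in wildtype and to 16894, 9119 and 9096 in SFR KO 1, 2 and 3. All 6 of its genes had differences below 0. The 3 tools called 0 of them in the main setting, with 3 at an unadjusted limma p under 0.05. Without SFR KO 1 limma called Fcer2a and Cr2 (adjusted p = 0.00405 each, 3.7% of all genes called). With sample weights it called the same genes (0.0475 and 0.0208, 4.65% of all genes). The T cell list (9 of 9 tested) summed to between 4357 and 4726 in wildtype and between 4812 and 6986 in SFR KO libraries, without overlap. Lck made up most of this sum, at 3797 to 6155, while the other genes had means from 46.4 (Cd8a) to 161 (Cd4) over the 6 libraries. The sum therefore follows Lck and does not by itself measure T cells. Of the 9 genes, 8 had differences above 0 and 1, Cd8a, below. Limma and edgeR called 0 genes of the T cell list, with 5 at an unadjusted limma p under 0.05. DESeq2 called 1, Lck (DESeq2 adjusted p = 0.0164, limma 0.218, and limma 0.0040 without SFR KO 1). With sample weights limma called Lck (0.0297) and Cd4 (0.0445). The plasma cell list (5 of 6 tested) summed to between 29585 and 30242 in wildtype and, also without overlap, between 32630 and 33227 in SFR KO libraries, with Tnfrsf17 at 0 in 3 libraries. Most of that sum was Jchain, the joining chain of secreted antibodies, at 22214 to 23175 in wildtype and 24789 to 26630 in SFR KO libraries. Sdc1, the plasma cell surface marker, was lower without overlap, at 35.9 to 47.7 in wildtype and 27.4 to 29.6 in SFR KO libraries (limma adjusted p = 0.302), and the median difference of the list was 0.01. Limma and edgeR called 0 of its genes, with 3 at an unadjusted limma p under 0.05. DESeq2 called 1, Jchain (DESeq2 adjusted p = 0.0104, limma 0.128, and limma 0.0476 with sample weights). The difference of Jchain was 0.18, and 0.04 after the GC correction (limma adjusted p = 0.767), when its groups overlapped. The part of these other cells in the deviations of the replication genes was not tested. Without wildtype 1 and SFR KO 1 together, limma called 0 of 45 genes (3.04% of all genes) and the median difference was 0.04. In that setting 21 genes were apart (50.4% of all genes with 4 libraries), 20 higher and 1 lower in SFR KO. The share of all genes in each direction was not taken there.

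Differences were related to base composition across the 45 genes. The Pearson correlation of the log2 difference with GC content was -0.446 and Spearman's was -0.343 (n = 45 genes, which share the same 6 libraries and are not independent). Over all tested genes the Pearson correlation was -0.132 and Spearman's was -0.272. Within single libraries, the deviation of wildtype 3 went up with GC content over the 45 genes (Pearson 0.756), and that of SFR KO 1 went the other way (Pearson -0.517). After the GC correction the median difference over the 45 genes was 0.02, as before, and the correlation with GC content turned to 0.363, so a relation of the opposite sign remained. The part of base composition in the single differences was not tested.

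**Figure D5:**
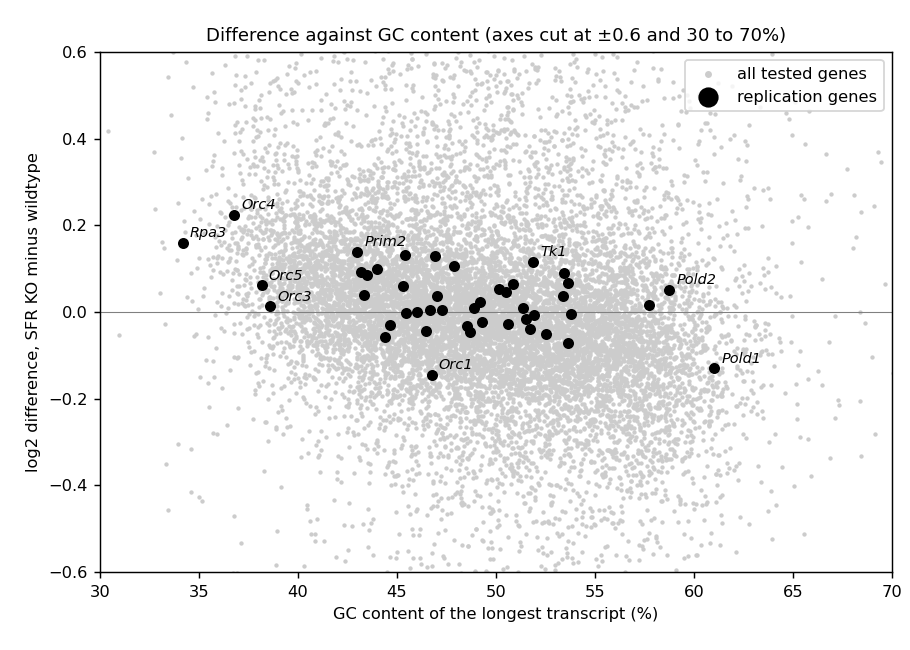
Log2 difference, SFR KO minus wildtype, against the GC content of the longest transcript in percent; black points are the 45 replication genes and grey points all tested genes. Rpa3 (34.2% GC) and Orc4 (36.8% GC) lie at the upper left, and Pold1 (61.0% GC) at the lower right.

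Genes with and without an E2F octamer in their promoter were set side by side. The 15 genes with one had a median difference of 0.01 (from -0.14 to 0.11), with 8 above 0. The 23 genes with an entry and no octamer had a median of 0.04 (from -0.06 to 0.22), with 16 above 0. The difference between the medians was not tested. None of the 38 genes passed the limma threshold, with 2 at an unadjusted p under 0.05 and 0 called by edgeR or DESeq2.

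Some of these counts may hold reads of neighbours or lack reads from shared exons. The strand setting and filters used to count reads were not stated in the labels or processing notes. Exons of 17 of the 45 genes overlap exons of another gene, in 14 cases one on the opposite strand. The overlap covers more than 10% of the exon bases in 7 genes, among them Gins2 (67.3%, with Gse1) and Fen1 (78.8%, with the little-expressed Gm10143, and 5.37% with Tmem258). For Orc4 it is 5.98% with Acvr2a and 1.82% with Mbd5, for Orc6 6.93% with Vps35 and for Orc1 10.8% with Gm12743. Values of these genes are uncertain, and a share of exon bases does not say how many reads could be shared. Vps35 had a mean of 5451 normalized reads and Gse1 of 3868, more than Orc6 and Gins2 themselves. Of the processed copies that could share reads with the clamp gene, Pcna-ps2 had a mean of 40.1 normalized reads.

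Another 99 genes of the pathway, in 7 lists, were read in the same fit. Limma called 0 of 99 and edgeR 0, while DESeq2 called 3 (3.03%, against 4.53% of all genes). At an unadjusted limma p under 0.05 there were 17 (17.2%, against 16.1% of all genes). The authors' deposited table had 3 of 99 under an adjusted p of 0.05, against 4.8% over its genes. Their median difference was 0.02, with 55 above 0 and 44 below. Groups were apart for 11 genes in the higher and 8 in the lower direction (9.78% and 11.9% of all tested genes).

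The DESeq2 calls all belonged to the list of other nucleotide synthesis. Cmpk1, the kinase that phosphorylates CMP and UMP, had 9592, 9092 and 8966 normalized reads across wildtype and 11329, 11038 and 10644 across SFR KO libraries. It was higher in SFR KO by 0.26 ± 0.05 (SE; interval 0.15 to 0.37), and missed the limma threshold at an adjusted p of 0.0573 but passed with DESeq2 (0.000396). Cmpk1 also passed in limma with sample weights (0.0156), with a robust prior (0.0415), without SFR KO 1 (0.0347) and without wildtype 1 and SFR KO 1 (0.0286). After the GC correction its difference was 0.14 (limma adjusted p = 0.224). The other DESeq2 calls were named after their values were seen. Shmt2, the mitochondrial serine hydroxymethyltransferase of one-carbon supply, had 6688, 6594 and 6798 normalized reads across wildtype and 6182, 5564 and 5676 across SFR KO libraries, a difference of -0.21 ± 0.05 (limma adjusted p = 0.121, or 0.0211 without SFR KO 1; DESeq2 0.0279). Cad, which carries out the first steps of pyrimidine synthesis, had 4253, 4179 and 4407 normalized reads across wildtype and 3750.2, 3387 and 3851 across SFR KO libraries, a difference of -0.23 ± 0.06 (limma 0.125, DESeq2 0.0345). The groups of these 3 genes did not overlap. The whole list of 18 had a median of 0.00, with 9 above 0 and 9 below.

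In the other 6 lists no gene passed the threshold with limma in the main setting, edgeR or DESeq2, and 12 of their 81 genes had an unadjusted limma p under 0.05 (14.8%, against 16.1% of all genes). With sample weights limma called 1 of them, Ccna2, the S phase and G2 cyclin, which was named after its value was seen (a main difference of 0.16, groups apart with SFR KO higher, adjusted p = 0.0475 with sample weights and 0.193 without). Chtf8, of an alternative clamp loader, had the smallest p among the remaining replisome subunits, at -0.30 ± 0.10 (adjusted p = 0.196). Among firing kinases and licensing control it was Cul4a, a scaffold of the ubiquitin ligase that degrades Cdt1, at -0.18 ± 0.06 (0.175), and among chromatin factors Chaf1b, a histone chaperone subunit, at -0.20 ± 0.07 (0.225). E2f8, a repressor of E2F targets, had the smallest p of the E2F and RB family at -0.12 ± 0.06 (0.414), and 0 of the 13 genes of that family had an unadjusted p under 0.05. Atr, the kinase of the fork checkpoint, stood at 0.20 ± 0.08 (0.257), and Ccnb1, the mitotic cyclin, at 0.19 ± 0.06 (0.157). The 14 other division genes, mostly of G2 and mitosis, summed to 173107, 190820 and 184169 normalized reads in wildtype and to 153332, 191168 and 189238 in SFR KO libraries. On this sum SFR KO 1 was the lowest library, and the groups overlapped. By gene, wildtype 1 was the lowest library for 8 of the 14 (16.2% of all genes) and SFR KO 1 for 5 (22.4%). The median deviation over the 14 genes was -0.08 for wildtype 1 and -0.03 for SFR KO 1.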

How the data were processed

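Total RNA of GFP+ spleen cells was sequenced in 6 libraries, grouped by the genotype in the labels and numbered in accession order, since the labels number no replicates. Per the submitters' processing notes, the tools were STAR 2.5, featureCounts 1.5 and DESeq2 1.14.1 on GRCm38. The strand setting, filters and annotation release of that step were not given in the sources used here. As its values, the authors deposited a normalized count per gene and library as a signal scaled to library size, with its mean. Beside it stand the authors' log2 fold change and its error, their test score, and the deposited p-value, raw and adjusted. Library values were whole multiples of 1 step, with 100% whole within 1e-06, so whole reads were recovered. Totals ran from 28269310 to 33053024 reads per library, and intervals cover only the spread between these samples.

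Limma 3.58.1 in R 4.3.3 (lmFit, eBayes with a trend, two-sided) was fitted on log2(normalized count + 1) to all 13562 genes with a mean of at least 10, with genotype as the factor and Benjamini-Hochberg adjustment over them; an adjusted p under 0.05 was called. These fold changes understate those of low genes. The alternatives were pseudocounts of 0.5 and 10, no filter or a mean of at least 50, TMM and upper quartile scaling, DESeq2 1.42.0 or the quasi-likelihood test of edgeR 4.0.16 on whole reads, sample weights, a robust prior, removal of the GC trend or the length trend of every library (natural spline, 4 degrees of freedom), and each library left out. After the data were seen, 3 were added: both trends removed, the GC trend removed without SFR KO 1, and wildtype 1 and SFR KO 1 left out. The length of the principal transcript was also added for levels. Transcripts and GC content came from GENCODE release M21, which matched 99.7% of genes.

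Values by library are given for the gene with the smallest p and the gene with the most reads of each role of 3 or more members, for each gene of smaller roles, and for the 3 largest differences in each direction; of the other pathway lists, the gene with the smallest p is named. The members and lists were chosen with earlier results of these data known. In counts simulated for SFR KO against wildtype over 13562 genes, the share of changed genes that limma called was 22% at a log2 change of 0.4, 46% at 0.7, 52% at 1 and 82% at 2 (50 genes each), and 16 of 117 calls were unchanged genes. These shares are over genes of all levels, not over the 45.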

Additional observations from a re-analysis of the deposited data

How the results depend on the processing

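Limma, edgeR and DESeq2 called 0 of the 45 genes in the main setting and the 21 alternatives, and the median difference stayed between 0.00 and 0.05 in those that gave one. Of 420 alternative values of the 20 named replication genes, 384 kept their sign and 36 did not; all 36 belong to differences that were not called, and the cause was not tested. Genes whose groups did not overlap numbered 6 (21.7% of all genes in either direction), and 13 with upper quartile scaling (21.7%), all higher in SFR KO. They numbered 14 with the GC trend removed without SFR KO 1 (37.1%), 10 higher and 4 lower. Without wildtype 1 and SFR KO 1 they numbered 21 (50.4%), 20 higher and 1 lower. With each library left out they numbered 8 to 18, the highest without SFR KO 1 (38.2%). The share over all genes was not taken with other single libraries left out. Fewer libraries overlap less by construction. Of the 99 other pathway genes, 3 were called by DESeq2 (4.53% of all genes) and 4 with sample weights (4.65%), namely Cmpk1, Shmt2, Cad and Ccna2. A robust prior gave 1 (1.19%), and leaving out wildtype 1 and SFR KO 1 gave 3 (3.04%). With each library left out 0 to 2 were called (3.7% of all genes without SFR KO 1). With TMM scaling Fen1 stood at 0.00167, and with edgeR at 0.00172. With upper quartile scaling Fen1 was at 0.0184 and Cdc45 at 0.00104, and with sample weights at 0.0365 and 0.0338. With the GC trend removed, Mcm6 was at -0.00196, Rpa3 at -0.103, Fen1 at 0.0434 and Rrm1 at -0.00301. With GC and length trends removed, Mcm3 was at 0.00057, Rpa3 at -0.175 and Fen1 at 0.0368. With the GC trend removed without SFR KO 1, Mcm3 was at 0.0202, Cdc45 at 0.0336, Pold1 at 0.0144, Rpa3 at -0.123, Fen1 at 0.0877 and Uhrf1 at 0.0474. Without wildtype 1 and SFR KO 1, Rpa1 was at -0.0125 and Fen1 at 0.0307. With each library left out, values ran from -0.0781 to 0.0336 for Cdc45, from -0.0494 to 0.0966 for Cdc6, from -0.014 to 0.0637 for Cdt1, from -0.0414 to 0.0392 for Fen1, from -0.000284 to 0.113 for Lig1, from -0.028 to 0.0588 for Mcm6, from -0.0114 to 0.0327 for Rpa1 and from -0.12 to 0.000637 for Uhrf1. No paired analysis was possible because the labels give the groups no shared replicate numbers.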
